A study of Mus musculus with 2 samples.

Results

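The genes described here encode the adipokines and other proteins that fat cells secrete. The set was fixed by name and holds 9 genes: Lep, Adipoq, Retn, Cfd, Rbp4, Nampt, Agt, Apln and Sfrp5. Every probe set (a group of short oligonucleotides that read part of 1 transcript) annotated to one of them alone was taken, which gave 9 probe sets for 8 of the 9 genes, out of 20380 probe sets for 12393 genes on the array. Cfd, which encodes adipsin (complement factor D), was not analysed here. Lep, Adipoq, Retn and Cfd were grouped as hormones or proteins made mainly by fat cells, and Rbp4, Nampt, Agt, Apln and Sfrp5 as secreted factors that other tissues make as well.

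The RNA came from mammary tumors of wild-type FVB females that were 5 weeks old when treatment began. All mice received 15 mg of medroxyprogesterone acetate, a long-acting progestin, under the skin and then 4 weekly doses of 1 mg of DMBA, a polycyclic carcinogen, by gavage. From the day after the last DMBA dose, the control group ate standard chow and the GW9662 group ate chow with 0.1% GW9662, an irreversible inhibitor of the nuclear receptor PPARγ. RNA of 5 mice was pooled for each diet and hybridized to 1 Affymetrix mouse 430A 2.0 array, so each diet is represented by a single array of pooled animals. No test between the diets was possible, and all differences below are descriptions of these 2 arrays. The tumor RNA carried strong epithelial signal on both arrays. Krt8, a keratin of luminal mammary cells, read 9496 under the control diet and 9665 under GW9662.

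White fat is an endocrine organ. Leptin reports the size of fat stores to the brain, adiponectin raises insulin sensitivity, and resistin in mice opposes insulin action. The genes of all of these hormones are switched on as fat cells differentiate, a program led by PPARγ and C/EBPα. The mammary epithelium grows within a pad of such fat, so pooled tumor RNA can hold transcripts of fat cells as well as of tumor cells. In pooled tissue, fewer cells of a type and less RNA per cell cannot be told apart.

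The genes of the fat cell hormones were far lower in tumors from GW9662-treated animals, and the widely expressed factors were split. Retn, which encodes resistin, was 28.6-fold lower, Adipoq (adiponectin) was 23.2-fold lower, and Lep (leptin) was at least 9.80-fold lower. Of the widely expressed factors, the retinol carrier gene Rbp4 was at least 17.6-fold lower, whereas Nampt was 1.67-fold and Apln 1.35-fold lower. The thresholds of the study's methods were a difference of 3-fold and a signal of 300, taken here on one array or the other. By these, 4 of the 5 genes of the set that reached 300 were lower, against 2.68% of the 6053 genes that reached it. None of the set was higher by these thresholds, against 0.215% of those genes. Lep, Retn and Rbp4 reached 300 only on the control array, which fixed their direction in the counts at 300. All 7 genes of the set that reached a signal of 100 had the lower value under GW9662, against 47.5% of the 8206 genes that reached it. Lep, Rbp4 and Agt reached 100 only on the control array, which fixed their direction in this count.

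Retn was read by a single probe set, with a signal of 3668 under the control diet and 128 under GW9662. The GW9662 signal was 3.49% of control, a log2 ratio (GW9662 over control) of -4.84. Of the 5993 genes that reached 100 on both arrays and 300 on one of them, 0 had a larger difference in this direction. Adipoq read 9668 under the control diet and 417.5 under GW9662, which left 4.32% of the control signal and a log2 ratio of -4.53. Only 2 of the 5993 genes were further reduced, Retn and the fatty acid transporter gene Cd36. Genes that fell below 100 under GW9662, such as Cox8b (1136 and 9.1), are outside these counts, and each gene is ranked at 1 probe set. The order of Retn and Adipoq turns with the floor, since with signals below 200 read as 200 their log2 ratios were -4.20 and -4.53. Even after this reduction the Adipoq signal stood above 300, so transcripts of fat cells were still measurable in the GW9662 pool.

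Lep read 979.8 under the control diet and 23.0 under GW9662. The second value is no higher than signals of olfactory receptor probe sets, which tumors of the mammary gland are not expected to express and which reached up to 25.8. For this reason the difference is only a bound. Wherever the dimmer signal was below 100 it was read as 100, so that at most 10.2% of the Lep signal remained. With that floor the log2 ratio of Lep was -3.29, and with the deposited values it was -5.41.

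Among the widely expressed factors, Rbp4 stood with the hormones. Rbp4 is the blood carrier of retinol, made chiefly by the liver and also by fat cells. Its probe set read 1764 under the control diet and 79.5 under GW9662, so at most 5.67% of the signal remained. Agt encodes angiotensinogen, the precursor of angiotensin, which liver, fat and other tissues secrete. Agt was dim, at 206.9 under the control diet and 12.6 under GW9662, and can be called only at least 2.07-fold lower. Its deposited values give a log2 ratio of -4.04, against -1.05 with the floor.

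Nampt, the rate-limiting enzyme of NAD salvage in most cells, also circulates and was once named visfatin. At its brighter probe set it read 1002 under the control diet and 601.4 under GW9662, 1.67-fold lower. Of the 5993 genes ranked above, 369 had a larger difference in this direction, so Nampt was lower than most genes. The other Nampt probe set read 29.1 and 11.3, both below 100, and gives no fold. Apln encodes apelin, a peptide of endothelial and fat cells, and its probe set read 254.3 and 188.0, 1.35-fold lower. The log2 ratios of Nampt (-0.74) and Apln (-0.44) can be set beside the spread between probe sets of the same gene, an SD of 0.36 over 2639 genes, which holds no variation between mice. Sfrp5, a secreted decoy for Wnt ligands, read 3.2 and 12.3, both among the olfactory receptor signals, and no direction was read from it.

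**Figure D1:**
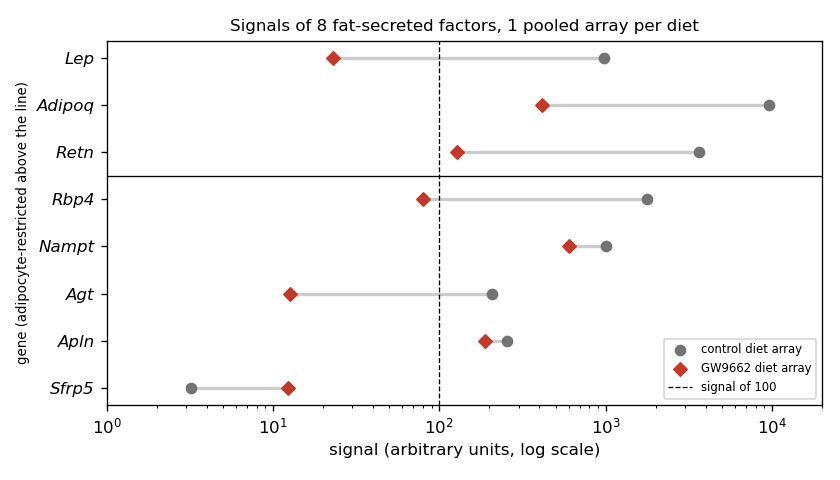
Signal of each of the 8 genes with a probe set of its own, on a log scale. Gray circles stand for the control diet array and red diamonds for the GW9662 diet array, 1 pooled array each. Retn, Adipoq, Lep and Rbp4 are separated by long lines, Nampt (1002 and 601.4) and Apln (254.3 and 188.0) by short ones, and Sfrp5 lies below the dashed line at a signal of 100.

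The contrast between the classes therefore rested on 7 genes. The 3 fat cell hormones with a value had a median log2 ratio of -4.84, or -4.53 with low signals read as 100. The 4 measurable widely expressed factors had a median of -2.39, or -0.89 with low signals read as 100. The order of Rbp4 and Lep is not known, since both folds are bounds. Without Rbp4, the median of the widely expressed factors was -0.74. Over all 8206 genes that reached 100, the minimum used for these 7 genes, the median log2 ratio of the deposited values was 0.025. Over the 6053 genes that reached 300 it was 0.05.

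Stretches of 150 bases before the start sites are shown for the 4 genes with the largest differences and, for contrast, for Nampt and Apln. They are RefSeq sequences of the build GRCm38.p6, and all 9 genes had a promoter in that table, Rbp4 at 2 start sites. Capitals mark short motifs of general promoter factors and of the C/EBP proteins, found on either strand. The core bound by C/EBP proteins was searched as TTNCNNAA, where N is any base. The box bound by Sp factors, rich in G and C and here called a GC box, was searched as GGGCGG. The TATA box that positions the polymerase was searched as TATAAA. The CCAAT box was searched by the letters of its name.
Lep (chr6:29060071-29060220, plus strand): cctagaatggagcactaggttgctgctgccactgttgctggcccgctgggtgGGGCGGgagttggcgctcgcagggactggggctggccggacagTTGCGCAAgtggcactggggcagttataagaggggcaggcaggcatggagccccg
Adipoq (chr16:23146386-23146535, plus strand): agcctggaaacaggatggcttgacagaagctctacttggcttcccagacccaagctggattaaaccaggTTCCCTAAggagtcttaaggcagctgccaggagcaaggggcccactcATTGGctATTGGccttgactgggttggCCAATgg
Retn (chr8:3655620-3655769, plus strand): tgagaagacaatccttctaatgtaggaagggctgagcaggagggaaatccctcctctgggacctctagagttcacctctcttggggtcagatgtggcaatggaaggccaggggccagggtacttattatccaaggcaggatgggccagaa
Rbp4 (chr19:38124812-38124961, minus strand, inner start site): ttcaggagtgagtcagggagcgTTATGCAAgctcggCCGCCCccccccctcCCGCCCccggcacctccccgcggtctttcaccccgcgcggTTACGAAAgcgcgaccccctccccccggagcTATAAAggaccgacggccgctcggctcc
Nampt (chr12:32820185-32820334, plus strand): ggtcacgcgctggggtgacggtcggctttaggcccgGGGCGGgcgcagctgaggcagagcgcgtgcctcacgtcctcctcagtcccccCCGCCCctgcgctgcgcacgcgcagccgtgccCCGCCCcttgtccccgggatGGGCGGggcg
Apln (chrX:48034854-48035003, minus strand): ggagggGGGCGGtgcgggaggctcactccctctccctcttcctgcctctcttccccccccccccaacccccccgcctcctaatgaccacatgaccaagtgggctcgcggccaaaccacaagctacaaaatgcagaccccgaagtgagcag

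The Lep promoter holds the palindrome TTGCGCAA at positions -55 to -48 from the start site, a C/EBP core on both strands. Adipoq has a C/EBP core at -81 to -74 and 3 CCAAT boxes closer to the start. The inner Rbp4 start site follows a TATA box at -28 to -23 and a pair of C/EBP cores. The Retn stretch holds none of the 6 motifs searched. Nampt has 5 GC boxes in 250 bases, of which the first lies outside the printed stretch, and no TATA or CCAAT box or C/EBP core. The share of bases that are G or C in 250 bases was 75.6% for Nampt, 65.6% for Lep, 54.8% for Retn and 48.8% for Adipoq, with a median of 52.4% over all 32851 promoters.

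Over all promoters, 36.8% hold a C/EBP core within 250 bases, 33.8% a CCAAT box, 12.4% a TATA box and 32.7% a GC box. The half-site of nuclear receptors (AGGTCA) was found in Nampt at -151 to -146, just outside the printed stretch, and in 14.0% of all promoters. The full element that PPARs bind with RXR, 2 direct copies of this half-site with any 1 base between them, was in 0 of the 10 promoters of the set and in 0.0335% of all promoters. These are matches of letters in a short window, not measured sites, and nothing is drawn from them about binding.

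Markers of fat cells and skeletal muscle moved with the hormones. All 11 measured adipocyte markers were at least 3-fold lower, against 2.68% of the 6053 genes, with a median log2 ratio of -3.06 with low signals read as 100. Cidec, Plin4, Lipe, Adig, Gpd1 and Cd36 reached 300 only on the control array, which fixed their direction in this count. The summed signal of the 11 markers on the GW9662 array was 14.0% of that on the control array. On the GW9662 array 8 of the 11 still reached 100, while Cidec (44.2), Lipe (63.3) and Adig (76.8), of lipid droplets, lipolysis and fat cell differentiation, did not. Fabp4, the fatty acid binding protein of fat cells, read 3097 there against 13670 under the control diet at its brightest probe set, and 18 against 374.9 and 3.0 against 131.3 at its dimmest. Carbonic anhydrase 3 (Car3) read 2330 against 13264 at one probe set and 371.1 against 10177 at the other, and Thrsp, a regulator of lipogenesis, read 348 against 7235. All 8 skeletal muscle markers had a lower signal, against 47.5% of the 8206 genes, with a median of -2.54. Ckm, Tnnt3, Actn3 and Atp2a1 reached 100 only on the control array, which fixed their direction. The summed signal of the 8 was 11.3% of control.

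Set against the adipocyte markers that reached 100 on both arrays, at 1 probe set per gene, Retn and Adipoq lay at the low end. This order depends on both choices. It leaves out markers that fell below 100 under GW9662, such as Cidec (1949.5 and 44.2). The other Car3 probe set had a log2 ratio of -4.78, a larger difference than that of Adipoq (-4.53). Of the 8 markers that reached 100 on both arrays, 0 had a larger difference than Retn and 1, Cd36, a larger one than Adipoq. All 11 markers differed more than Nampt and Apln. For Lep, Rbp4 and Agt only bounds are known, so they were not placed in this order. Whether the hormone genes were lower because the GW9662 pool held less fat was not tested.

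Markers of epithelium, stroma and immune cells differed less than those of fat and muscle, again with low signals read as 100. Luminal epithelial markers had a median log2 ratio of 0.17 over 7 genes, macrophage markers -0.18 over 6, basal epithelial markers -0.35 over 6, fibroblast markers -0.50 over 6 and housekeeping genes -0.05 over 6. All 8 endothelial markers were lower (Tie1 reached 100 only on the control array), against 47.5% of the 8206 genes, with a median of -0.78. By at least 2-fold 2 of them were lower, against 4.24% of those genes. This was a larger difference than the Apln ratio of -0.44. The 3 brown fat markers above 100 had a median of -2.83, which is the bound of Cidea with the floor, and they did not move alike. Of these, Cox8b read 1136 and 9.1, Cidea 710.2 and 45.3, and Dio2 180.0 and 180.4. Ucp1, the defining protein of brown fat, read 76.2 and 1.9, both below 100.

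Liver markers were examined because Rbp4 and Agt are best known as products of the liver. Apoa1, Apoa2, Ahsg and Tat read no higher than 33.1 on either array at their brightest probe sets. Albumin (Alb) read 128.8 and 20.8, and fibrinogen beta (Fgb) read 3190 and 276.9. The markers of this list were thus mixed, with 4 of 6 below 100 on both arrays. Both others were lower under GW9662, against 47.5% of the 8206 genes, but Alb reached 100 only on the control array, which fixed its direction. The part of these markers in the Rbp4 and Agt values was not tested.

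**Figure D2:**
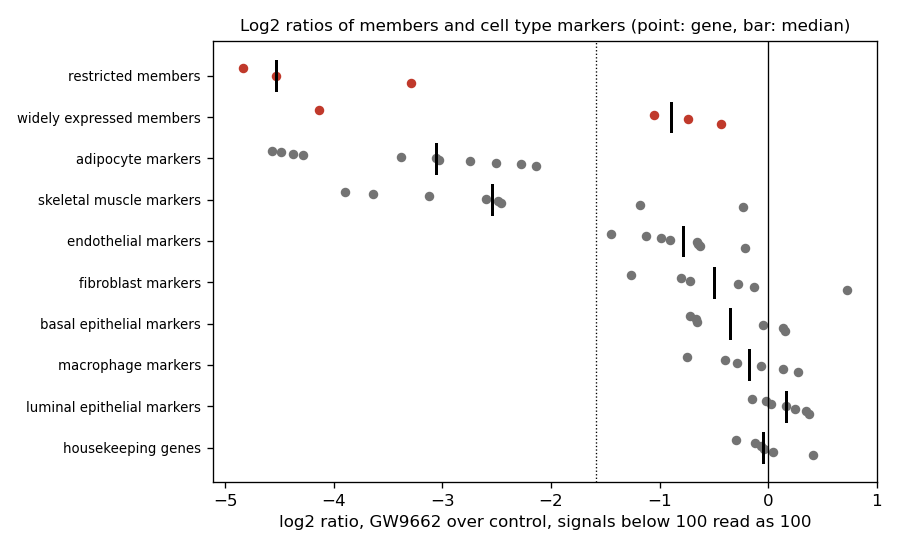
Log2 ratio of GW9662 over control for each gene that reached a signal of 100, with lower signals read as 100. Each point is 1 gene and each bar the median of its list, the solid line marks no difference and the dotted line 3-fold lower. The hormones and adipocyte markers (medians -4.53 and -3.06) lie left of the dotted line, and luminal epithelial markers (0.17) lie near 0.

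Receptors and binding partners of the adipokines were lower on the GW9662 array by smaller amounts. All 7 that reached a signal of 100 were lower, against 47.5% of the 8206 genes. By at least 2-fold 1 was lower, against 4.24% of those genes. This was Adipor2, an adiponectin receptor, at 1553.9 and 667.0, 2.33-fold lower. The other receptor of this pair, Adipor1, read 1680 and 1379. Cdh13 encodes T-cadherin, which binds adiponectin on endothelium and muscle, and was 1.99-fold lower (334.2 and 167.8). The leptin receptor Lepr read 166.4 and 70.4 at its brightest probe set, at least 1.66-fold lower, and reached 100 only on the control array.

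The apelin receptor Aplnr was nearly level, at 3095 and 3015. Cap1, an actin regulator reported to bind resistin, read 2172 and 1794 at its brighter probe set and 1017 and 489.9 at the other. Wnt5a, a ligand that Sfrp5 sequesters, read 882.7 and 665.1, and 436.9 and 184.2 at its dimmer probe set. The dimmer probe sets of both genes thus showed the larger difference. Stra6, the receptor of Rbp4, and the angiotensin receptors Agtr2 and Mas1 were below 100 on both arrays.

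Signal genes downstream of the leptin and adiponectin receptors differed little. Of 7, 3 had a higher and 4 a lower signal, with a median log2 ratio of -0.04. The kinase Jak2, which the leptin receptor engages, read 847.1 and 1119, and its target Stat3 read 1356 and 1391 at its brightest probe set. A second Stat3 probe set read 1387 and 989.1, so the probe sets of this gene did not agree in direction. The same held for Jak2, with 326.3 and 310.2 at its second probe set, and for Socs3, with 297.1 and 380.4. The phosphatase Ptpn1 and the feedback inhibitor Socs3, both brakes on leptin signaling, read 1335 and 1300, and 725.3 and 679.0 at their brightest probe sets. The insulin receptor substrate gene Irs2 read 249.9 and 222.6.

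Genes that assemble adiponectin into its secreted multimers in the endoplasmic reticulum were lower by far less than Adipoq. The retention chaperone Erp44 read 1203 and 996.9, the thiol oxidase Ero1a read 1158 and 881.0, and Gstk1, also called DsbA-L, read 833.0 and 660.2. All 3 were lower, against 47.5% of the 8206 genes, with log2 ratios between -0.39 and -0.27. The 3 genes serve secretion in many cell types.

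Of the enzymes that process angiotensin, Enpep (aminopeptidase A), which trims angiotensin II, was 5.71-fold lower, at 965.8 and 169.0. Neprilysin (Mme) read 1724 and 1438, and the converting enzyme Ace was below 100 on both arrays. In the alternative complement pathway, in which adipsin cleaves factor B, the factor B gene Cfb was at least 2-fold lower (200 and 49.2). Cd55, which protects cells from complement, was 2.01-fold lower (303.5 and 151.3), and properdin (Cfp) read 387.2 and 313.7. Masp1, whose product MASP-3 activates adipsin, was barely above 100 (105.6 and 66.0). All 4 genes of this list above 100 were lower, against 47.5% of the 8206 genes. Cfb and Masp1 reached 100 only on the control array, which fixed their direction.

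Of 4 genes of retinol handling with a probe set, 2 reached a signal of 100, and both were at least 2-fold lower, against 4.24% of the 8206 genes. One of these, Retsat, reached 100 only on the control array, which fixed its direction in this count. Retsat, which saturates retinol, was at least 3.78-fold lower (377.8 and 80.3), and Rbp7, a retinol binding protein inside cells, was 2.12-fold lower (594.3 and 280.9). Transthyretin (Ttr), which carries Rbp4 in blood, and Lrat, which esterifies retinol, were below 100 on both arrays. Around Nampt, all 3 NAD salvage genes above 100 were slightly higher, with log2 ratios between 0.08 and 0.19, where 47.5% of the 8206 genes were lower. The NAD-consuming enzymes Parp1 and Sirt1 read 822.7 and 894.3, and 401.3 and 457.5. Nmnat1, which completes NAD synthesis, read 121.4 and 128.3.

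**Figure D3:**
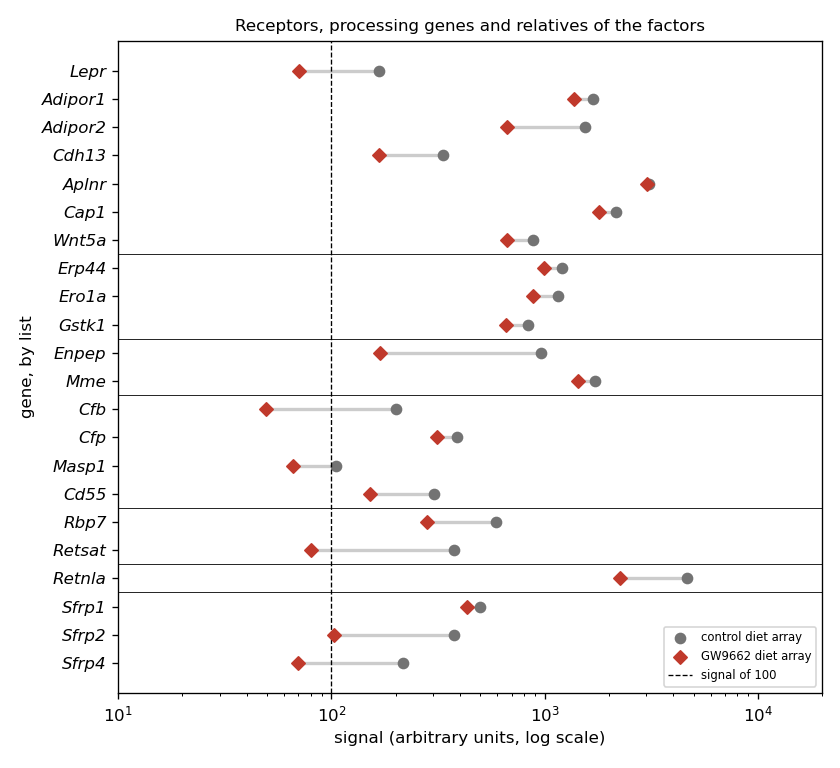
Signals of the receptors, adiponectin assembly genes, angiotensin processing enzymes, complement genes, retinol genes, the resistin relative and the Sfrp genes, from top to bottom and separated by lines, on a log scale. Gray circles are the control diet array and red diamonds the GW9662 diet array. Enpep, Retsat and Sfrp2 have the longest lines among genes with a control signal above 300, and Aplnr (3095 and 3015) has the shortest.

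The measured relatives of Retn and Adipoq differed far less than Retn and Adipoq. At their brightest probe sets, relatives of Sfrp5 ranged from nearly level to 3.63-fold lower, while Sfrp5 itself gave no direction. Retnla, a resistin-like protein of macrophages and fat, was 2.07-fold lower (4665 and 2249) where Retn was 28.6-fold lower, and Retnlb read below 1 on both arrays. Of the relatives of Sfrp5, Sfrp2 was 3.63-fold lower (373.8 and 103.1) and Sfrp4 was at least 2.16-fold lower (216.0 and 69.6). Sfrp1 read 500.2 and 430.1 at its brightest probe set, and its dimmer probe sets differed in direction (141.3 and 169.9, and 136.2 and 46.4). Frzb was below 100 on both arrays. Proteins of the C1q and TNF related family, to which adiponectin belongs, were close to level, with 2 higher and 2 lower. Among these were C1qtnf12, also called adipolin (2054 and 1563), C1qtnf1 (553.2 and 607.0), C1qtnf6 (204.8 and 223.9) and C1qtnf4 (113.6 and 97.7).

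Further factors that fat is known to secrete ranged from nearly 10-fold lower to slightly higher. Of 16 that reached a signal of 100, 13 were lower, against 47.5% of the 8206 genes, and 3 were higher. By at least 2-fold, 7 were lower and 0 were higher, against 4.24% and 0.89% of the 8206 genes, with a median log2 ratio of -0.46. Rarres2, which encodes the adipokine chemerin, was 9.77-fold lower (2255 and 230.7), and a second probe set differed in the same direction (1982 and 249.2). Lipoprotein lipase (Lpl), which fat cells secrete to the vessel wall, was 7.83-fold lower at its brighter probe set and read 2957 and 169.9 at the other, a larger difference. Nrg4, a growth factor of fat that signals through ErbB4, was at least 4.65-fold lower (465.5 and 85.0). Nrg4 reached 100 only on the control array, which fixed its direction in the counts above.

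The brightest of these factors differed little. The matrix protein Sparc read 9816 and 7722, apolipoprotein E (Apoe) read 7981 and 6719, and lipocalin 2 (Lcn2), which epithelium and neutrophils also make, read 6587 and 7501. The remaining factors at least 2-fold lower were Hp, Ccdc80, Igf1 and Angptl4, named after their values were seen, at 3.42-fold, 2.55-fold, 2.39-fold and 2.04-fold at their brightest probe sets. Dimmer probe sets of Ccdc80 (524.4 and 93.9) and Igf1 (640.3 and 163.0, and 336.6 and 81.7) differed more. Il6, Tnf, Itln1, Fgf21 and Serpina12, also named after their values were seen, were below 100 on both arrays.

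**Figure D4:**
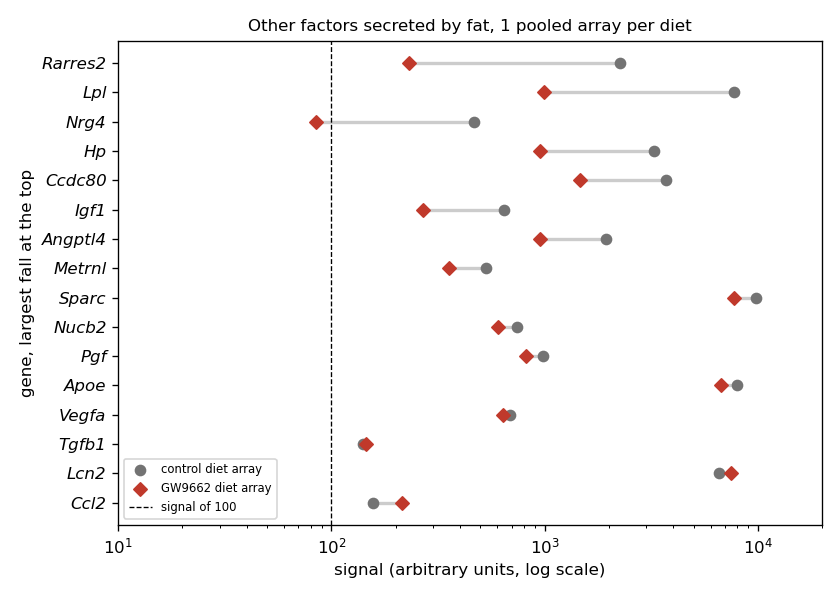
Signals of 16 further factors secreted by fat, ordered by the log2 ratio with low signals read as 100, on a log scale. Gray circles show the control diet and red diamonds the GW9662 diet. Rarres2 (2255 and 230.7) is at the top and Ccl2 (157.3 and 214.3) at the bottom, and the dashed line marks a signal of 100.

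The regulators that drive adipokine genes in fat cells were all lower, by unequal amounts, against 47.5% of the 8206 genes. Pparg reached 100 only on the control array, which fixed its direction. Pparg was at least 7.13-fold lower and Cebpa 2.29-fold lower. Srebf1, a lipogenic factor induced by insulin, was 1.96-fold lower (3532 and 1801), and Cebpd, which acts early in fat cell differentiation, was 1.70-fold lower (1697.5 and 997.5). Cebpb read 4721 and 4054 at its brighter probe set and 1459 and 650.5 at the other, and the PPAR partner Rxra 602.3 and 462.7.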

How the data were processed

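Gene expression was read from 2 Affymetrix mouse 430A 2.0 arrays, 1 for each diet, each with RNA pooled from 5 mice. The values deposited by the authors are linear signal intensities of 22690 probe sets, read with GeneChip Operating Software. The algorithm, scaling and presence calls behind them, not given in the sources used here, could not be checked. Both arrays had a 2% trimmed mean of 500.2, and no further scaling was applied. Control signals of 0 were read as 0.1.

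Gene names came from the platform annotation, which is old, updated by gene identifier with RefSeq. Those with 1 gene numbered 20380, and the brightest probe set by the mean of both arrays stood for each gene. Signals below 100 were read as 100 for folds, and no fold was given when both were below 100. With 1 pooled array per diet there was no test, and 2 arrays limit the precision. The counting rule was run on simulated data whose noise was the SD between probe sets of a gene (0.36). That noise holds no variation between mice or arrays, so the run checks the counting only and not the differences between these arrays.

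The genes and lists were chosen with earlier results of these data known. Named were all 9 genes, all genes above 100 of the receptor, assembly, angiotensin, complement, retinol, resistin, Sfrp and regulator lists, and, in other lists, up to 3 genes by brightness and 3 by size of difference. Other settings covered scaling, probe set choice, floors, the signal minimum, the fold and the class of Rbp4. The tools were pandas 2.3.3 and numpy 2.4.6 under Python 3.11.15, with figures by matplotlib 3.10.9.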

Additional observations from a re-analysis of the deposited data

How the results depend on the processing

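Of 70 recomputed values, 58 moved by less than the SD between probe sets of a gene (0.36) or, for counts, by no more than 1.5 times, 12 moved further and 0 changed sign. Much of this was fixed in advance. Every measured gene of the set but Nampt has 1 probe set, so the choice of probe set could not move it. Centring removed a median of only -0.012, and neither floor could move Adipoq or Nampt. The count of 58 is therefore no measure of robustness. The number of genes of the set at least 3-fold lower was 4 in all settings but a signal minimum of 100, where Agt made it 5. Floors moved the medians, by construction. With signals below 100 read as 100, the median log2 ratio was -0.89 for the widely expressed factors and -3.06 for adipocyte markers. With signals below 200 read as 200 it was -4.20 for the fat cell hormones, -0.54 for the widely expressed factors and -2.63 for adipocyte markers. Counting Rbp4 with the hormones left a median of -0.74 for the others. Lep ranged from -5.41 to -2.29, Agt from -4.04 to -0.05, Rbp4 from -4.47 to -3.14 and Retn from -4.84 to -4.20, and the value nearest 0 of each came with the floor of 200. At that floor Retn was no longer below Adipoq (-4.53). No paired analysis was possible because each diet has 1 array.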
